A study of Homo sapiens with 2 samples.

Results

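The genes described here are the splicing factors of the series, taken by a rule on gene names that uses no measured value. They are the SR proteins (SRSF), the hnRNPs, the Sm and snRNP proteins (SNRP and SNRNP), the SF3A and SF3B subunits, the PRPF factors, U2AF and the LUC7-like proteins. The name rule took 121 of 21225 rows, of which 79 are genes and 42 carry names of hnRNP pseudogenes. The groups were sequenced as libraries made with an mRNA-seq kit from Huh7, a human hepatoma cell line: cells transfected with an shRNA against E2F6, and cells transfected with a control shRNA. Each group has 1 library, so no difference below has a replicate check and none carries a p-value. The shRNA sequences and the time between transfection and harvest are not given in the sources used here.

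Splicing removes introns from precursor mRNA in the spliceosome, a machine built from small nuclear ribonucleoproteins (snRNPs). The U1 snRNP recognises the 5′ splice site, U2AF and the U2 snRNP recognise the 3′ splice site and the branch point, and the U4/U6.U5 tri-snRNP then joins and is rearranged for catalysis. SR proteins bind exons and mostly promote their inclusion, while many hnRNPs bind the same transcripts and oppose it, so the balance between both families shapes alternative splicing. E2F6, an E2F protein without a transactivation domain, represses genes, in part with Polycomb proteins.

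E2F6 itself stood at 0.997 FPKM in the E2F6 shRNA library, against 2.54 FPKM in the control shRNA library, a level 39.3% as high (95% interval from counting 25.8 to 59.3%). FPKM is the number of sequenced fragments, scaled to the length of the transcript and to the mapped total of the library. The size of 1 fragment, fitted on genes with 1 annotated transcript, corresponds to a total of about 14724835 fragments in the E2F6 shRNA library. In the control shRNA library it corresponds to 17139209. All 10 hepatocyte and hepatoma markers were at a mean of at least 1 FPKM, summing to 2447 FPKM in E2F6 shRNA cells and 3461 FPKM in control shRNA cells. Of these, 2 were higher in E2F6 shRNA cells (APOA1 and TTR) and 8 were lower. AFP, the most abundant of them, was at 1064 FPKM in E2F6 shRNA cells and 1721 FPKM in control shRNA cells. Only ALB and APOB were lower by the rule of size given next. ALB was at 77.6 FPKM in E2F6 shRNA cells and 173 FPKM in control shRNA cells. APOB was at 138 FPKM in E2F6 shRNA cells and 318 FPKM in control shRNA cells. Summed markers of other cell types were 63.1 FPKM in E2F6 shRNA cells and 42.1 FPKM in control shRNA cells for fibroblasts (4 of 10 at 1 FPKM or more) and 135 FPKM in E2F6 shRNA cells and 242 FPKM in control shRNA cells for macrophages (2 of 10, nearly all from LYZ). The endothelial and the T and B cell lists had 1 of 10 each at that level. Their part in the results below was not tested. In cells measured in bulk, fewer cells of a type and less RNA per cell cannot be told apart.

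No splicing factor passed the rule of size, which asked for a difference of at least 1 in log2(FPKM + 1) and a mean of at least 1 FPKM. Of the 121 members, 94 reached that mean (76 genes and 18 pseudogenes), and 0 were higher and 0 lower. Over all 11574 genes with that mean, 1.17% were higher and 2.06% lower. E2F6 itself, with a difference of −0.82, did not pass the rule either. At a smaller step of 1.5-fold on the same scale, 0 members were higher and 8 were lower, which is 8.51% of the members. The same step took 5.05% of all genes as higher and 9.33% as lower, so the share of members that were lower lay near the background. They include SRSF8, SRSF11, LUC7L2, SNRPA, PRPF4B, SNRPD2 and the pseudogene HNRNPUP1.

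The members ranged in difference from −0.97 (SRSF8) to 0.57 (SNRNP40), with a median of −0.08 against −0.00 over all genes tested. Of the 94, 39 (41.5%) were above 0 and 55 below, against 49.7% of all 11574 genes above 0. The groups of factors differed in where their members lay. Median differences were −0.27 for the 12 SR proteins, −0.17 for 21 hnRNPs and −0.44 for the 8 proteins of the U1 snRNP and LUC7-like family. Medians were 0.22 for the 12 U2 and U2AF proteins and 0.27 for the 8 tri-snRNP proteins. These are descriptions of 1 library against 1 library, and the differences between the groups of factors were not tested.

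**Figure D1:**
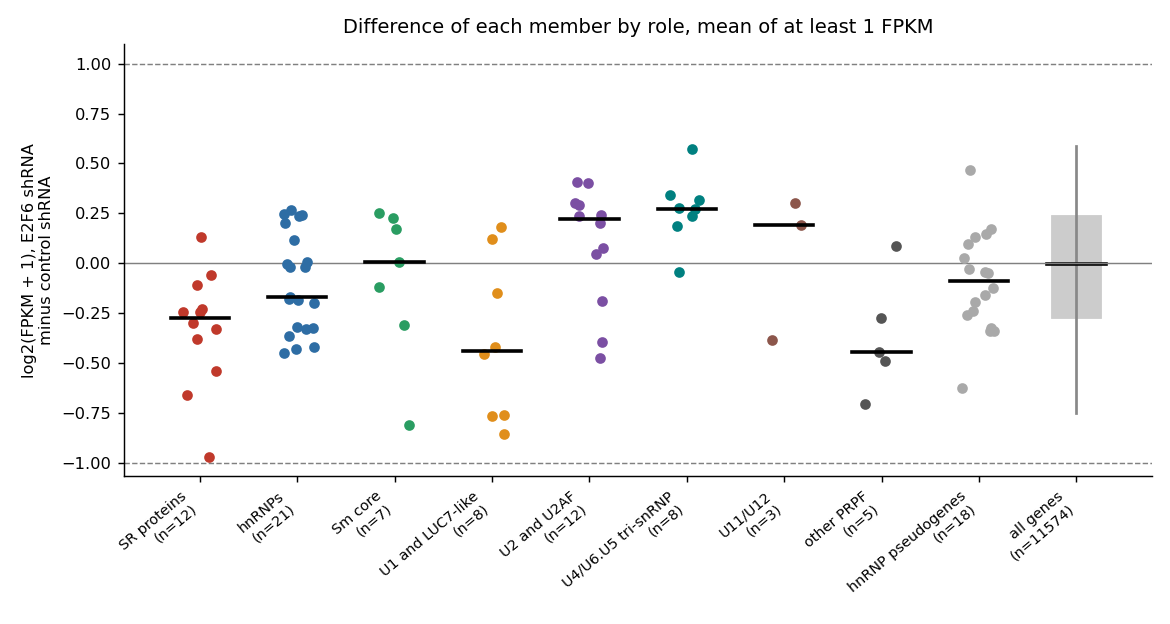
Difference in log2(FPKM + 1), E2F6 shRNA minus control shRNA, of each member with a mean of at least 1 FPKM, by role. Each point is 1 member, black lines are medians, dashed lines mark the rule of size, and the grey box and line at the right give the middle 50% and middle 90% of all 11574 genes. No point lies past a dashed line, and 11 of 12 SR proteins lie below 0 while 7 of 8 tri-snRNP proteins lie above it.

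Some of these genes have the short motif of E2F binding sites in their promoters. The letters TTCCCGCC and TTTCCCGC, which overlap each other in the longer run TTTCCCGCC, were searched on both strands in RefSeq windows that reach from 250 bases before to 50 bases after the gene's start (GRCh38.p14). Windows were found for 70 of the 79 genes, and 13 of them (18.6%) held a motif. The share was 8.50% of 7708 expressed protein-coding genes (655 genes) and 4.77% of all 27305 genes with a window. By role, 6 of 21 hnRNPs, 3 of 7 U1 and LUC7-like genes and 1 of 11 SR genes held one, against 0 of 7 tri-snRNP genes. A motif in a window is a match of letters and not a measured binding site. The upstream stretches of 4 genes are shown as examples from 4 different roles, and each holds 1 match, set in capitals. Other genes with such a stretch are not shown. Among them, SNRPC (0.18) and SNRNP25 (0.30) had differences above 0. HNRNPDL (−0.33), HNRNPF (−0.02) and HNRNPK (−0.02) lay below it. HNRNPUL1 (0.24) and HNRNPLL (−0.36) each hold 2 overlapping matches. Counting intervals of SNRNP25, HNRNPF and HNRNPK included a ratio of 1. The stretches shown all run 5′ to 3′ on the strand of the gene, and the 250 bases end at the base before the start.
LUC7L2 (chr7:139359644-139359893, plus strand, match 32 bases before the start): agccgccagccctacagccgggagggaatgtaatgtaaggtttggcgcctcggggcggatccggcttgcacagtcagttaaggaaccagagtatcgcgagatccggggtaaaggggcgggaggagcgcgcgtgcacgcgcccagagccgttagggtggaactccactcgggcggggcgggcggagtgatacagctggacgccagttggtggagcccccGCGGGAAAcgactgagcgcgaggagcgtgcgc
SRSF10 (chr1:23980328-23980577, minus strand, match 119 bases before the start): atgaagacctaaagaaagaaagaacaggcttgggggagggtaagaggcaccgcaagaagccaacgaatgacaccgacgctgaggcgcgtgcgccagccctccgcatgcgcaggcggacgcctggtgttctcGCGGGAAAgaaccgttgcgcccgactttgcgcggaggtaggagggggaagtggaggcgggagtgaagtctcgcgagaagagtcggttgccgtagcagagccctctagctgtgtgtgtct
SF3A1 (chr22:30356895-30357144, minus strand, match 81 bases before the start): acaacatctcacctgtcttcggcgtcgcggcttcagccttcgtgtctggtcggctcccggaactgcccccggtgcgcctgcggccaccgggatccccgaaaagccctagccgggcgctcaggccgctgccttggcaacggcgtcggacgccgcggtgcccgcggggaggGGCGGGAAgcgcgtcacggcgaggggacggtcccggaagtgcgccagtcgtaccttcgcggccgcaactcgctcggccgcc
HNRNPA2B1 (chr7:26200747-26200996, minus strand, match 109 bases before the start): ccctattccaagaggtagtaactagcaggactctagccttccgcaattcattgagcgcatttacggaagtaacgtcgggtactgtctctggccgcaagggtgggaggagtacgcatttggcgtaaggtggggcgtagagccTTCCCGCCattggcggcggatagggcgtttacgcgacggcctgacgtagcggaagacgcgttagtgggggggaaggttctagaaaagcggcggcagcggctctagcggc
LUC7L2 also has a second RefSeq start, whose upstream stretch held no match. Of these 4 genes, LUC7L2, SRSF10 and HNRNPA2B1 were lower in E2F6 shRNA cells and SF3A1 was higher, as given with their values below, though LUC7L2 summed with its read-through gene was higher, at 52.5 FPKM in E2F6 shRNA cells and 18.9 FPKM in control shRNA cells. Among member genes with a window and a mean of at least 1 FPKM, the 13 with a motif had a median difference of −0.15 (4 above 0 and 9 below). The 54 without a motif had −0.08 (25 above and 29 below). Over expressed protein-coding genes the medians were −0.01 with a motif and −0.01 without.

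SR proteins carry an RNA recognition motif and a tail rich in arginine and serine, and act at the earliest steps of exon recognition. Of the 12 measured, 11 lay below 0 and only SRSF9 above, a count that stood under centring, quantile and TMM scaling and became 9 below and 3 above after correction for GC content. SRSF8, a close relative of SRSF2 that arose as a retrocopy, was at 2.24 FPKM in E2F6 shRNA cells and 5.34 FPKM in control shRNA cells (ratio 0.420, 95% counting interval 0.320 to 0.550), and it passed the rule of size with a pseudocount of 0.1. SRSF11, an atypical member also known as p54, was at 5.10 FPKM in E2F6 shRNA cells and 8.64 FPKM in control shRNA cells (ratio 0.591, interval 0.470 to 0.742). SRSF10, which turns into a splicing repressor when it is dephosphorylated, was at 8.41 FPKM in E2F6 shRNA cells and 12.7 FPKM in control shRNA cells (ratio 0.663, interval 0.554 to 0.795). These 3 were the lowest of the family before GC correction, and counting error alone does not reach a ratio of 1 for any of them. After GC correction SRSF10 had −0.23, and SRSF2 (−0.41), SRSF1 (−0.25) and SRSF3 (−0.24) lay lower than SRSF10.

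Before GC correction, the other SR proteins differed less. SRSF3, the smallest of the family, was at 20.2 FPKM in E2F6 shRNA cells and 26.5 FPKM in control shRNA cells. SRSF1, which promotes use of 5′ splice sites, was at 22.7 FPKM in E2F6 shRNA cells and 27.1 FPKM in control shRNA cells. SRSF6, the most abundant of the family here, was at 64.1 FPKM in E2F6 shRNA cells and 75.4 FPKM in control shRNA cells. In these 3 the difference was −0.38, −0.24 and −0.23. SRSF2, a binder of exonic enhancers, was at 7.34 FPKM in E2F6 shRNA cells and 9.27 FPKM in control shRNA cells, and SRSF7 was at 13.8 FPKM in E2F6 shRNA cells and 16.5 FPKM in control shRNA cells. SRSF12, a low gene, stood at 1.97 FPKM in E2F6 shRNA cells and 2.74 FPKM in control shRNA cells. SRSF5 was at 7.47 FPKM in E2F6 shRNA cells and 8.11 FPKM in control shRNA cells, and SRSF4 was at 6.91 FPKM in E2F6 shRNA cells and 7.23 FPKM in control shRNA cells, the smallest differences among those below 0. Intervals of SRSF4, SRSF5, SRSF9 and SRSF12 included a ratio of 1 and those of the other 8 lay below it. SRSF9 stood at 34.1 FPKM in E2F6 shRNA cells and 31.05 FPKM in control shRNA cells. Its exons overlap GATC on the opposite strand over 46.2% of their bases, and 56.6% of the exon bases of SRSF1 belong also to RP11-159D12.5 (1.24 FPKM in E2F6 shRNA cells and 1.15 FPKM in control shRNA cells), so reads of such stretches cannot be assigned with certainty.

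**Figure D2:**
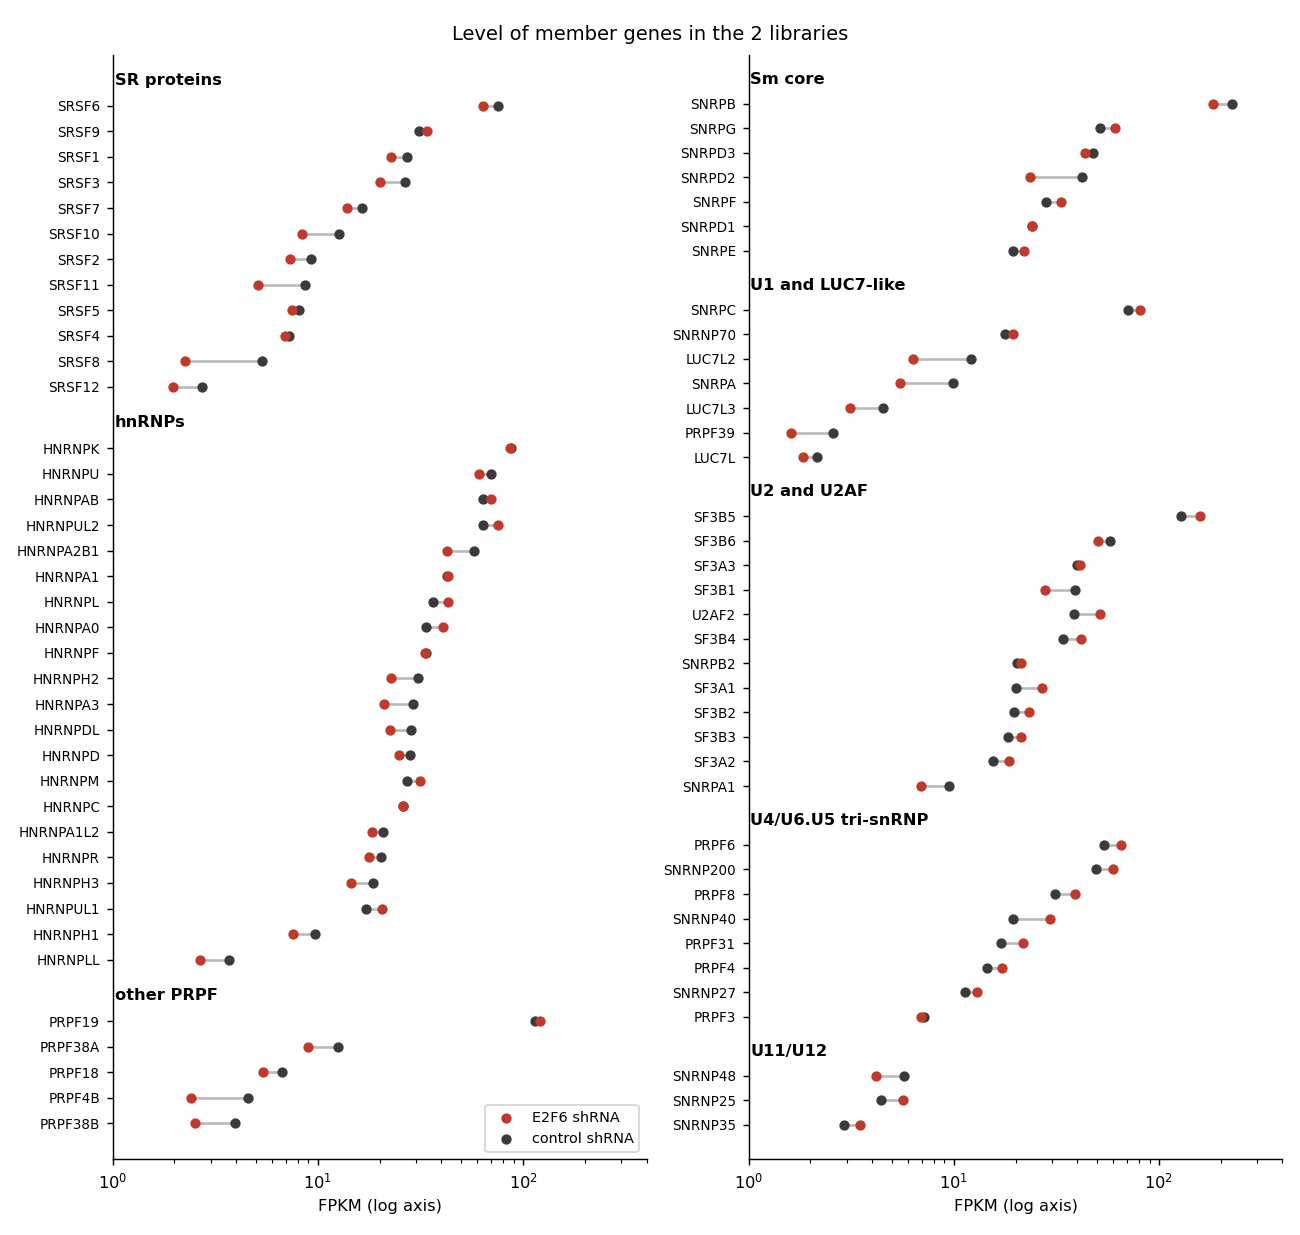
Level of the member genes that reached a mean of 1 FPKM in the E2F6 shRNA library (red) and the control shRNA library (dark grey), in FPKM on a log axis, by role. The grey line joins both libraries of a gene. Red points lie left of dark points for most SR proteins, while in the tri-snRNP they lie right of them for 7 of 8 genes.

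The U1 snRNP and the LUC7-like proteins, which select 5′ splice sites, held 3 of the 8 members lower by 1.5-fold. They were 37.5% of this small group, against 9.33% of all genes. Among them is LUC7L2, whose direction depends on a read-through gene, as given below. Of 8 measured, 2 lay above 0 and 6 below, or 1 above and 7 below after GC correction. LUC7L2, whose yeast counterpart is a U1 snRNP protein, was at 6.30 FPKM in E2F6 shRNA cells and 12.2 FPKM in control shRNA cells (ratio 0.517, interval 0.434 to 0.615). The tables list a read-through gene, C7orf55-LUC7L2, that shares 21.8% of the exon bases of LUC7L2, and it ran the other way, at 46.2 FPKM in E2F6 shRNA cells and 6.71 FPKM in control shRNA cells. Summed as above, the pair was higher in E2F6 shRNA cells. The lower value holds for the LUC7L2 entry alone, and how fragments were divided between both entries was not tested.

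SNRPA, the U1 protein that binds a loop of U1 snRNA, was at 5.45 FPKM in E2F6 shRNA cells and 9.95 FPKM in control shRNA cells, a difference of −0.76. PRPF39 was at 1.60 FPKM in E2F6 shRNA cells and 2.57 FPKM in control shRNA cells. LUC7L3 and LUC7L were nearer to 0, with differences of −0.42 and −0.15. In contrast, SNRNP70, the core U1 protein that also binds the snRNA directly, was at 19.5 FPKM in E2F6 shRNA cells and 17.8 FPKM in control shRNA cells, and SNRPC, the third core U1 protein, was at 80.8 FPKM in E2F6 shRNA cells and 70.95 FPKM in control shRNA cells. The 3 core U1 proteins thus did not lie on one side of 0. The one gene of this group under 1 FPKM, PRPF40B, was at 0.515 FPKM in E2F6 shRNA cells and 0.509 FPKM in control shRNA cells.

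The U2 snRNP and U2AF genes lay mostly above 0, with 9 above and 3 below of 12 (8 and 4 under quantile scaling), and none differed by 1.5-fold. SF3A1, a subunit of the SF3a complex, was at 26.9 FPKM in E2F6 shRNA cells and 20.1 FPKM in control shRNA cells. U2AF2, the large U2AF subunit that binds the polypyrimidine tract, was at 51.4 FPKM in E2F6 shRNA cells and 38.7 FPKM in control shRNA cells, and both had a difference of 0.40. SF3B1, the subunit that clamps the branch point and is mutated in several cancers, lay on the other side, at 27.8 FPKM in E2F6 shRNA cells and 39.04 FPKM in control shRNA cells (−0.47, or −0.13 after GC correction). SNRPA1, a core U2 snRNP protein, was at 6.96 FPKM in E2F6 shRNA cells and 9.46 FPKM in control shRNA cells. SF3B5, a small SF3b subunit, was the most abundant of this group, at 159 FPKM in E2F6 shRNA cells and 129 FPKM in control shRNA cells. The remaining SF3A and SF3B genes lay between −0.19 (SF3B6) and 0.30 (SF3B5).

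U2AF1, the small U2AF subunit that reads the AG at the 3′ splice site, was listed at only 0.0810 FPKM in E2F6 shRNA cells and 0.124 FPKM in control shRNA cells. U2AF1L5, the near-identical copy of U2AF1 in the GRCh38 annotation, was listed at 0.0997 FPKM in E2F6 shRNA cells and 0.248 FPKM in control shRNA cells. Reads that match both copies equally cannot be given to one of them, and their part in these levels was not tested, so no level of U2AF1 can be read from the tables.

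The tri-snRNP genes lay above 0 in 7 of 8 cases under every scaling tried. SNRNP40, a WD-repeat protein of the U5 snRNP, was the highest of all members, at 29.4 FPKM in E2F6 shRNA cells and 19.4 FPKM in control shRNA cells (ratio 1.51, interval 1.31 to 1.75). PRPF31, which helps hold the tri-snRNP together and is mutated in a form of retinitis pigmentosa, was at 21.8 FPKM in E2F6 shRNA cells and 17.0 FPKM in control shRNA cells. PRPF8, the scaffold at the heart of the spliceosome, was at 39.2 FPKM in E2F6 shRNA cells and 31.2 FPKM in control shRNA cells. SNRNP200, the helicase that unwinds U4 from U6 (59.9 FPKM in E2F6 shRNA cells and 49.2 FPKM in control shRNA cells), and PRPF6, a scaffold of the tri-snRNP (65.3 FPKM in E2F6 shRNA cells and 53.99 FPKM in control shRNA cells), had differences of 0.28 and 0.27. PRPF3 was the exception at 6.88 FPKM in E2F6 shRNA cells and 7.13 FPKM in control shRNA cells, a difference of −0.04. Counting intervals of 6 of the 8 lay above a ratio of 1.

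**Figure D3:**
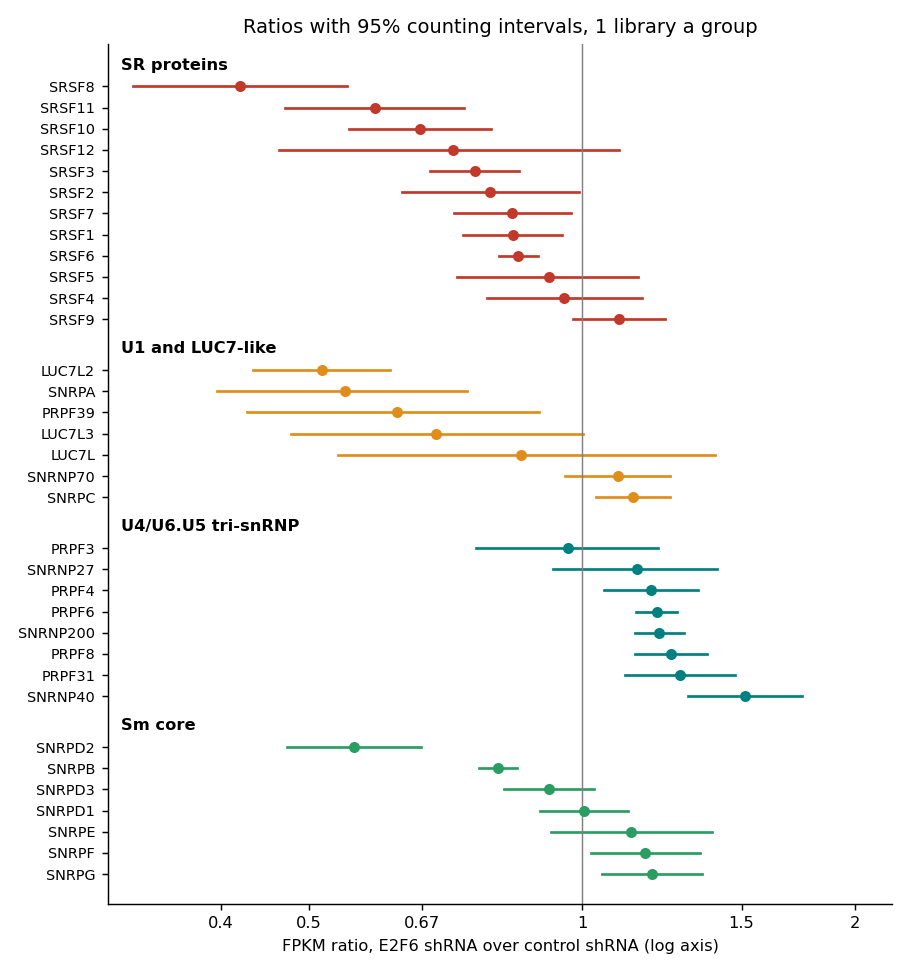
FPKM ratio, E2F6 shRNA over control shRNA, on a log axis, for genes of 4 roles, with exact 95% counting intervals from estimated fragments. The intervals cover counting error only, since each group has 1 library. SRSF8 has the lowest ratio (0.420) and SNRNP40 the highest (1.51), and the tri-snRNP genes cluster right of 1.

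The 7 Sm genes, whose products form the ring around each spliceosomal snRNA, split into 4 above and 3 below 0. SNRPD2, the SmD2 protein, stood apart at 23.6 FPKM in E2F6 shRNA cells and 42.1 FPKM in control shRNA cells (ratio 0.560, interval 0.473 to 0.665, difference −0.81, or −0.95 after GC correction). SNRPB, the source of SmB, was the most abundant member gene, at 183.5 FPKM in E2F6 shRNA cells and 227 FPKM in control shRNA cells. SNRPG, at the other end, was at 61.3 FPKM in E2F6 shRNA cells and 51.4 FPKM in control shRNA cells. SNRPF (0.22) lay close to SNRPG (0.25), and after GC correction SNRPF had 0.66 and SNRPG 0.59. SNRPD3 (−0.12), SNRPD1 (0.01) and SNRPE (0.17) differed less. Counting intervals of SNRPD1, SNRPD3 and SNRPE included a ratio of 1. SNRPE and SNRPG made up the smaller part of the sum with their pseudogenes, as given below. The ring is assembled from equal parts of these proteins, while its 7 genes lay on both sides of 0 in mRNA, in 1 library against 1 library.

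The hnRNPs were spread around 0, with 7 above and 14 below of 21, or 10 above and 11 below under TMM scaling and after GC correction, and none differed by 1.5-fold. HNRNPA3 was lowest, at 20.9 FPKM in E2F6 shRNA cells and 28.98 FPKM in control shRNA cells (−0.45). HNRNPA2B1, which binds UAG-containing RNA and carries transcripts in the cytoplasm, was at 42.5 FPKM in E2F6 shRNA cells and 57.5 FPKM in control shRNA cells (−0.43). The G-run binding relatives HNRNPH1, HNRNPH2 and HNRNPH3 had differences of −0.32, −0.42 and −0.33, and the related HNRNPF had −0.02. After GC correction HNRNPH1, HNRNPH2 and HNRNPH3 had −0.33, −0.15 and −0.06, and HNRNPF had −0.09. HNRNPA0, highest of the family, was at 40.9 FPKM in E2F6 shRNA cells and 33.8 FPKM in control shRNA cells (0.27). HNRNPU, a scaffold of chromatin and RNA, was at 61.2 FPKM in E2F6 shRNA cells and 69.7 FPKM in control shRNA cells. HNRNPC, which shields introns from use of Alu-derived exons, was at 26.08 FPKM in E2F6 shRNA cells and 26.1 FPKM in control shRNA cells. HNRNPK, a binder of C-rich RNA and DNA and the most abundant hnRNP gene, was at 86.5 FPKM in E2F6 shRNA cells and 87.6 FPKM in control shRNA cells. HNRNPCL1 was below 1 FPKM in both libraries.

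Some of the named hnRNP pseudogenes stood at far higher levels than their parent genes. Of the 42 pseudogene rows, 40 are processed pseudogenes in GENCODE release 29, 1 is an unprocessed one and 1, HNRNPA1P48, is listed as protein-coding. HNRNPA1, the archetype of the A/B family, was at 42.9 FPKM in E2F6 shRNA cells and 42.7 FPKM in control shRNA cells. Its pseudogene HNRNPA1P7 stood at 777 FPKM in E2F6 shRNA cells and 792 FPKM in control shRNA cells, and HNRNPA1P48 at 285 FPKM in E2F6 shRNA cells and 295 FPKM in control shRNA cells. With its 21 named pseudogenes the family summed to 1187 FPKM in E2F6 shRNA cells and 1212 FPKM in control shRNA cells, and the gene made up 3.61% of that sum in E2F6 shRNA cells and 3.52% in control shRNA cells. The sum over the family differed by −0.03.

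Likewise HNRNPA3 was 7.89% of its family's sum in E2F6 shRNA cells and 9.27% in control shRNA cells, with HNRNPA3P6 at 180 FPKM in E2F6 shRNA cells and 206 FPKM in control shRNA cells. The sum of that family differed by −0.24, against −0.45 for the gene alone. HNRNPC was 18.6% of its family in E2F6 shRNA cells and 20.2% in control shRNA cells, with HNRNPCP2 at 112 FPKM in E2F6 shRNA cells and 101 FPKM in control shRNA cells. For HNRNPU the gene kept most of the sum, 82.4% in E2F6 shRNA cells and 77.1% in control shRNA cells, and HNRNPUP1 was at 13.1 FPKM in E2F6 shRNA cells and 20.7 FPKM in control shRNA cells. HNRNPA1P41 was the highest pseudogene by difference, at 5.42 FPKM in E2F6 shRNA cells and 3.65 FPKM in control shRNA cells. The same held outside the hnRNPs, where SNRPE was 16.2% of the sum with its pseudogenes in E2F6 shRNA cells and 15.7% in control shRNA cells, and SNRPG was 36.3% in E2F6 shRNA cells and 36.9% in control shRNA cells. Reads shared between a parent and its copies cannot be told apart in these values, and their part was not tested.

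**Figure D4:**
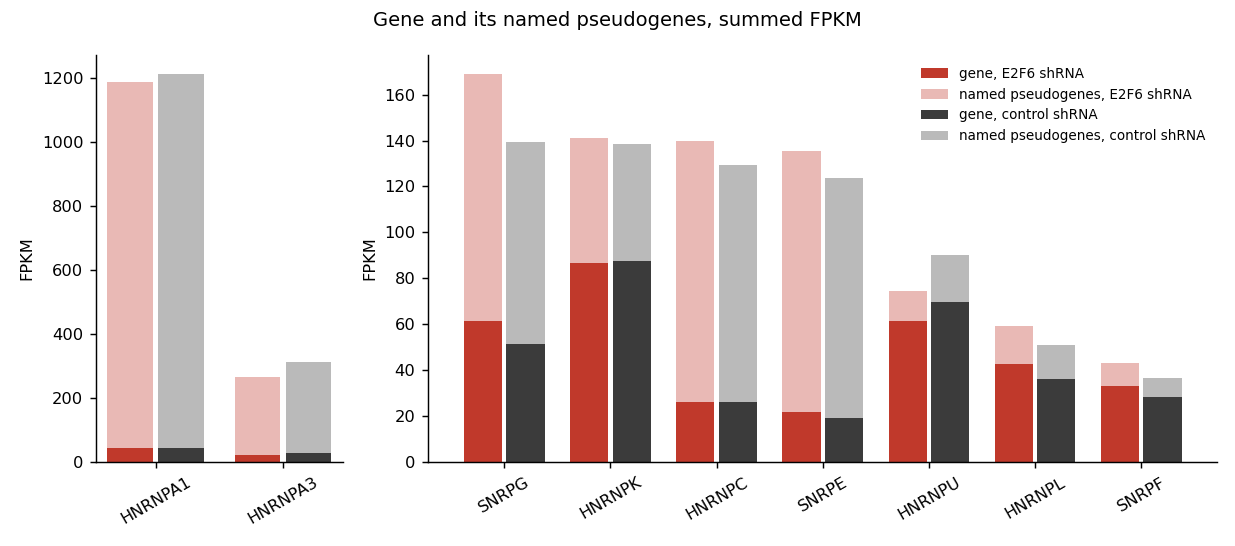
FPKM of 9 member genes (solid part of each bar) with their named pseudogenes stacked on top (pale part), in E2F6 shRNA (red) and control shRNA (dark grey) libraries, on linear axes from 0. The pale part exceeds the solid part in HNRNPA1, HNRNPA3, HNRNPC, SNRPE and SNRPG.

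The factors of the later steps and the minor spliceosome form smaller groups. PRPF4B, a kinase that acts on the tri-snRNP, was at 2.41 FPKM in E2F6 shRNA cells and 4.56 FPKM in control shRNA cells (−0.71). PRPF38B and PRPF38A, the second of them a factor of spliceosome activation, had differences of −0.49 and −0.44, and PRPF18, a factor of the second step, had −0.27. PRPF19, the ubiquitin ligase of the PRP19 complex, was among the most abundant members, at 121 FPKM in E2F6 shRNA cells and 114 FPKM in control shRNA cells. For the U11/U12 proteins that recognise the rare minor introns, SNRNP48 was at 4.17 FPKM in E2F6 shRNA cells and 5.74 FPKM in control shRNA cells, a difference of −0.38 that turned to 0.05 after GC correction. SNRNP25 was at 5.64 FPKM in E2F6 shRNA cells and 4.39 FPKM in control shRNA cells, and SNRNP35 had a difference of 0.19.

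The differences moved with the base composition of the transcripts. Over the 76 member genes the Spearman correlation between the difference and the mean GC content of the annotated transcripts was 0.455, and over 9900 protein-coding genes of the same libraries it was 0.463. Genes are not independent replicates and share the library and its depth, so the correlation is a description. Among the members with GC below 45.3%, 9 lay above 0 and 29 below, with a median of −0.30. Those at or above that content had 24 above and 14 below, with a median of 0.16. Within the SR proteins the correlation was 0.587 (n = 12) and within the hnRNPs 0.588 (n = 21). Subtracting the trend over all protein-coding genes left a median of −0.02 over the 94 members, and 4 members were then higher (SNRPF, SNRPG, SNRNP27 and SNRNP40) and 5 lower (SRSF8, SNRPD2, LUC7L2, SNRPA and HNRNPUP1) by 1.5-fold. Under the same correction 4.70% of all genes were higher and 6.12% lower, so both counts lay near the background. The SR proteins then had a median of −0.17 and the tri-snRNP genes of 0.20. The part of GC content in the differences was not tested.

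**Figure D5:**
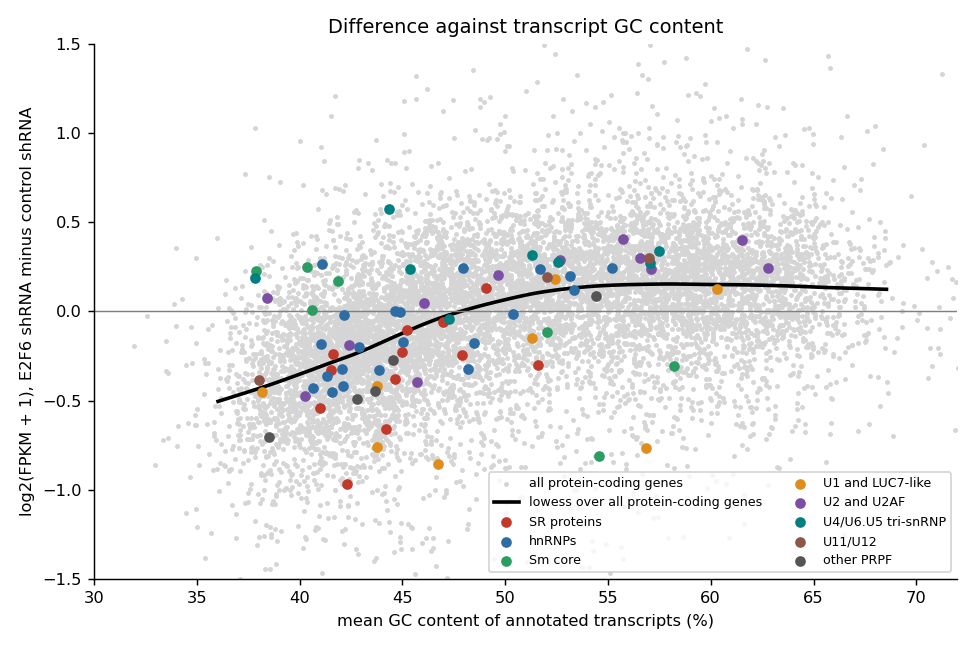
Difference in log2(FPKM + 1), E2F6 shRNA minus control shRNA, against mean GC content of the annotated transcripts, for 9900 protein-coding genes (grey, of which 95 lie outside the axes) and the members (coloured by role). The black line is a lowess over all protein-coding genes. Members follow the rise of the line, with medians of −0.30 below 45.3% GC and 0.16 above.

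Many splicing factor genes are known to limit their own protein through alternative exons that send their transcripts to nonsense-mediated decay. In GENCODE release 29, 44 of 76 member genes (57.9%) have a transcript of that class, against 4316 of 9900 protein-coding genes (43.6%). All 12 SR genes have one, as do 7 of 8 U1 and LUC7-like genes, 2 of 8 tri-snRNP genes and 2 of 7 Sm genes. A transcript with a retained intron is listed for 48 members (63.2%) and 57.7% of all protein-coding genes. These are properties of the annotation, and the tables give 1 value a gene, so the use of such transcripts was not measured here.

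Splicing genes outside the name rule were taken from 11 lists of 154 genes, of which 148 reached a mean of 1 FPKM. Of these, 1 was higher and 1 lower by the rule of size, against 1.17% and 2.06% of all genes. Of the 148, 66 lay above 0 and 82 below, with a median of −0.04, and 49.7% of all genes lay above 0. SMG8, which controls the SMG1 kinase of nonsense-mediated decay, was at 5.88 FPKM in E2F6 shRNA cells and 1.28 FPKM in control shRNA cells (ratio 4.59, interval 3.24 to 6.58), with a mean below the stricter minimum of 5 FPKM. CWC22, which brings the exon junction complex to the spliceosome, was at 3.44 FPKM in E2F6 shRNA cells and 10.1 FPKM in control shRNA cells (ratio 0.339, interval 0.280 to 0.410), and it was not past the rule after GC correction.

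The lists nearest to the SR proteins had medians below 0. Of 16 SR-related proteins and coactivators, 4 were above 0 and 12 below, with a median of −0.32 (6 above and 10 below, with a median of −0.06, after GC correction). PPIG, a nuclear cyclophilin with an RS domain, was at 2.72 FPKM in E2F6 shRNA cells and 6.31 FPKM in control shRNA cells. PNN (pinin), a partner of SR proteins at the exon junction complex, was at 15.3 FPKM in E2F6 shRNA cells and 27.8 FPKM in control shRNA cells. Among 5 measured kinases of SR proteins, 1 was above 0 and 4 below, and SRPK1 was at 6.25 FPKM in E2F6 shRNA cells and 9.18 FPKM in control shRNA cells.

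Of 12 other tri-snRNP proteins, 10 lay above 0 and 2 below, with a median of 0.27 (9 above and 3 below, with a median of 0.13, after GC correction). DDX23, the helicase that readies the tri-snRNP for activation, was at 27.9 FPKM in E2F6 shRNA cells and 18.3 FPKM in control shRNA cells. TSSC4, an assembly factor of U5 and the tri-snRNP, was at 2.72 FPKM in E2F6 shRNA cells and 1.45 FPKM in control shRNA cells. Medians of the other lists were −0.24 for 22 proteins of the PRP19 complex and catalytic steps (0.03 after GC correction), −0.10 for 33 other regulators of alternative splicing and −0.07 for 14 other U2 proteins. They were −0.01 for 8 LSm proteins and for 15 snRNP assembly proteins, 0.07 for 10 nonsense-mediated decay factors, 0.12 for 10 exon junction complex proteins and 0.23 for 6 minor spliceosome proteins. LSM7, a subunit of the ring on U6, was at 29.6 FPKM in E2F6 shRNA cells and 18.9 FPKM in control shRNA cells.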

How the data were processed

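RNA of 1 E2F6 shRNA and 1 control shRNA library of Huh7 cells was measured by RNA-seq with an mRNA library kit. Tools listed per the submitters' processing notes are HISAT2 2.0.4 and StringTie 1.3.0, with the build GRCh37 and no settings. The deposited tables of the authors give 1 value a gene, and their headers name no unit. The authors deposited values already normalized to transcript length and library size, taken here as FPKM from the values themselves. The size of 1 fragment was fitted on genes with 1 annotated transcript. Of the values above 0 of these same genes, 97.95% came out as whole numbers of fragments within 0.01. The tables hold U2AF1L5, a gene of the GRCh38 annotation, so their build is not settled, and coordinates here come from RefSeq alone. Of 21227 rows, 21225 were used, 23 names turned into dates were restored by gene ID, and 21059 IDs matched GENCODE release 29.

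Differences are in log2(FPKM + 1), which understates low genes. The rule of size was 1 on that scale at a mean of at least 1 FPKM. With 1 library a group no test was run. Counting intervals (95%, exact) came from fragments estimated with mean annotated transcript lengths and cover counting error only. GC trends were fitted by lowess (span 0.3). Read-through genes, pseudogenes and overlapping genes were read from the annotation. Named genes were E2F6, members, and from each other list those past the rule or the 2 highest and 2 lowest, of which some are printed. The members and lists were chosen with earlier results of these data known. Alternatives were pseudocount 0.1, no minimum or a minimum of 5, centring, quantile and TMM scaling, GC correction and a 1.5-fold step. Scripts were tested on simulated data. Python 3.11.15, pandas 2.3.3, numpy 2.4.6, scipy 1.17.1 and statsmodels 0.14.6 were used. Protein sequences of the SR genes were not analysed here. 1 member is counted but not reported here by name or in the plots of single genes.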

Additional observations from a re-analysis of the deposited data

How the results depend on the processing

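With 1 library a group, no value here has a replicate check. No paired analysis was possible because 1 library stands in each arm and no result comes from a test. The count of members lower by the rule of size, 0 as reported, was 1 with a pseudocount of 0.1 (SRSF8) and 8 at the 1.5-fold step. The median of the 7 Sm genes moved to 0.33 after GC correction. Among the other splicing lists, 1 gene was higher as reported, 0 with a minimum mean of 5 FPKM and 3 at the 1.5-fold step. In those lists 1 gene was lower as reported, 5 with a pseudocount of 0.1, 0 after GC correction and 12 at the 1.5-fold step. At that step the shares of the lists were 2.03% higher and 8.11% lower, against 5.05% and 9.33% of all genes. For the other settings no share of all genes past the rule of size is given, so those counts have no background. The share of all genes lower by 1.5-fold was 14.1% with a pseudocount of 0.1 and 6.12% after GC correction. E2F6 differed by −0.82 as reported and by −1.27 with a pseudocount of 0.1, and had no value at a minimum mean of 5. The causes of these shifts were not tested. Scaling moved the median of all genes by less than 0.1, and the medians of the 9 roles kept their sign under centring, quantile and TMM scaling and GC correction. GC correction moved the median to −0.01 from −0.17 for hnRNPs, to −0.03 from −0.09 for pseudogenes, to −0.24 from −0.44 for U1 and LUC7-like, to 0.13 from 0.22 for U2 and U2AF, to 0.08 from 0.19 for U11/U12 and to −0.25 from −0.44 for other PRPF genes. The sign turned for the Sm genes without those with named pseudogenes or read-through overlap (−0.06, 2 genes) and for the pseudogenes with no minimum (0.01). Genes near 1 FPKM rest on few fragments.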

Other observations

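Some members overlap genes whose values are listed separately. The read-through gene HNRNPUL2-BSCL2, which shares 44.1% of the exon bases of HNRNPUL2, was at 6.55 FPKM in E2F6 shRNA cells and 2.70 FPKM in control shRNA cells, while HNRNPUL2 was at 75.2 FPKM in E2F6 shRNA cells and 63.5 FPKM in control shRNA cells. The table also holds 2 MATR3 rows that share most of their exon bases. MATR3, an RNA-binding protein of the nuclear matrix, was at 2.003 FPKM in E2F6 shRNA cells and 4.22 FPKM in control shRNA cells in the listed row, and in the other at 2.29 FPKM in E2F6 shRNA cells and 3.72 FPKM in control shRNA cells. Both rows lay below the control in E2F6 shRNA cells.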
